A study of Mus musculus with 8 samples.

Results

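DNA replication machinery is described here as 51 genes whose products load, activate and drive the replisome, the protein assembly that copies chromosomes in S phase. Members were taken by gene symbol, and where several probe sets measured a gene, the brightest on average over the 8 arrays stood for it. Of the 51 genes, 50 had a probe set annotated to that gene alone, out of 18193 named genes tested. Chaf1a was not analysed here, because no probe set was annotated to it alone.

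Leukaemic spleen cells of 4 mice were sorted on c-kit into a c-kit-high fraction (CD117pos) and a c-kit-negative fraction (CD117neg), with 4 arrays in each. All cells carried MLL-AF10, a fusion of the histone methyltransferase gene MLL with AF10, introduced by retrovirus into c-kit+ bone marrow stem and progenitor cells that were immortalised and then transplanted. Recipients were syngeneic mice, labelled CD57BL/6, which had been sub-lethally irradiated and so may keep blood cells of their own. Each mouse gave both fractions, and mice are named by the endings of the array titles, _948, _951, _952 and _953. Values of single arrays are listed below in that order of mice. The comparison asks which transcripts set c-kit-high leukaemia cells apart from c-kit-negative cells of the same spleen, and no normal blood cells were part of it.

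Replication starts in G1, when the origin recognition complex, Cdc6 and Cdt1 load the Mcm2 to Mcm7 helicase onto DNA, a step called licensing. At S phase entry the Cdc7 and Dbf4 kinase, Mcm10, Cdc45 and the GINS complex turn loaded helicases into moving forks, where polymerases, the Pcna clamp, its Rfc loader and the single-strand binding protein RPA carry out synthesis. Many of these genes are known targets of E2F transcription factors, and in haematopoiesis their transcripts are abundant in dividing progenitors and fade as myeloid cells mature and leave the cell cycle.

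The labels were checked first. Kit itself (Entrez gene 16590), which encodes CD117, had an intensity of 754, 741, 599 and 909 in CD117pos arrays, against 28.7, 39.2, 15.7 and 30.9 in CD117neg arrays. As the sorted marker it is no finding. The pan-leukocyte gene Ptprc measured at least 2740.2 and the fusion target Hoxa9 at least 4734 on all 8 arrays, and Ptprc was lower in CD117pos, with a log2 difference of -1.03. The myeloid genes differed between fractions. Mpo, which encodes the granule enzyme myeloperoxidase, was higher in CD117pos by 2.20 ± 0.23, whereas Itgam, encoding the integrin CD11b of mature myeloid cells, and Spi1, encoding the myeloid factor PU.1, had differences of -2.39 ± 0.45 and -1.63 ± 0.23 (limma adjusted p = 0.00333, 0.0165 and 0.00745). Hoxa9 and the fusion target Meis1 did not pass. The part of myeloid maturation in the replication gene differences was not tested. Levels of markers of other cell types varied by list. The summed intensity of 6 measured erythroid markers was 59.9 to 126 in CD117pos and 75.9 to 93.3 in CD117neg arrays, and none of the 6 passed the test. For 5 B cell markers the sums were 139 to 715 and 631 to 1224, for 5 T cell markers 51.2 to 557 and 103 to 138, and for 5 stromal and endothelial markers 74.0 to 610.3 and 138 to 191. Among these only Pecam1, which is not confined to endothelium, passed, lower in CD117pos at -0.89 ± 0.16 (limma adjusted p = 0.0143). The endothelial gene Cdh5 averaged 10.4 in CD117pos and 10.9 in CD117neg, with a difference of -0.03 ± 0.13. NK and megakaryocyte markers summed to 39.5 to 64.7 and 95.3 to 141 in CD117pos, against 35.9 to 76.6 and 95.2 to 151 in CD117neg. Of 5 mast cell and basophil markers 1 rose and 1 fell, with sums of 1199 to 2651 in CD117pos and 3361 to 3959 in CD117neg, most of it from the falling gene Hdc, at 812 to 2317 in CD117pos and 3208 to 3709 in CD117neg. The rise was Mcpt8. The defining T cell genes Cd3d and Cd4 stayed at or near the floor value of 1. The CD117pos array of mouse _951 stood apart. Its correlation with the other CD117pos arrays was at most 0.929, against up to 0.989 among those, and it held the highest T cell and stromal sums through Cd8a (537) and Pdgfrb (551). Among CD117pos arrays, its erythroid, NK and megakaryocyte sums (126, 64.7 and 141) were also the highest, and its B cell sum (139) was the lowest. Of the mast cell and basophil genes, Ms4a2 measured 722 there, against 68.2 to 106 on the other CD117pos arrays, and Mcpt8 527, against 156 to 219. In contrast, Hdc (812) and Cpa3 (5.88) were the lowest of their fraction on that array.

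Replication genes that passed the test were all higher in CD117pos cells, but most members did not pass. Of the 50 measured members, 21 rose and 0 fell (limma moderated test on log2(intensity + 16), mouse as a block, Benjamini-Hochberg adjusted p under 0.05). Among all 18193 genes, 8.27% rose and 13.8% fell by the same test. The remaining 29 members did not pass. Before adjustment, 1 member, Orc4, was lower with a p under 0.05. The calls had log2 differences, CD117pos minus CD117neg, of 0.40 to 1.15, which correspond to 1.32-fold to 2.22-fold, and adjusted p of 0.00563 to 0.0485. In 48 of 50 members the difference was positive. The median over the members was 0.55, against -0.01 over all genes, and 11.4% of all genes had a difference of at least the members' median. All members were well expressed, with means over the 8 arrays between 106 and 5069. Among the 9960 genes with a mean of at least 50, tested alone, 17.2% rose and 25.9% fell, and in that fit 26 members rose and 1 (Orc4) fell. A rise of at least 1 on the log2 scale was seen in 5 members (Cdc7, Rfc3, Rfc4, Pold1 and Rnaseh2a) and in 2.21% of all genes. In 26 of 50 members all 4 CD117pos arrays lay above all 4 CD117neg arrays, and in 1 all lay below, against 10.4% and 17.3% of all genes. Because the arrays measured mixed cells, a larger share of cells in S phase and more transcript per cell cannot be told apart.

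**Figure D1:**
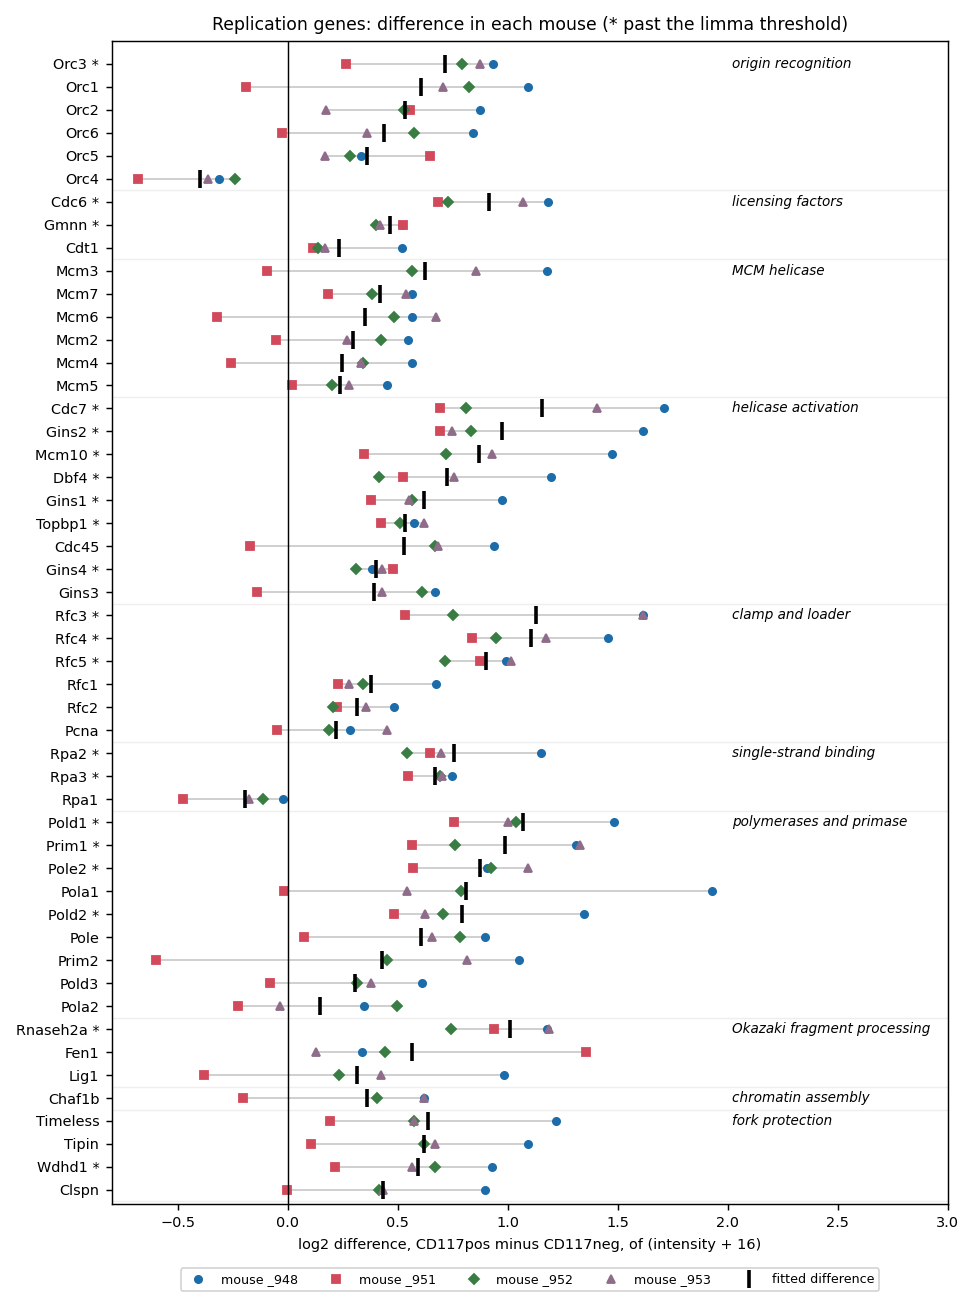
Log2 difference of each of the 50 measured replication genes in each of the 4 mice (x axis, CD117pos minus CD117neg of log2(intensity + 16)), grouped by role, with coloured markers for mice and a black bar for the fitted difference. Asterisks mark the 21 genes past the limma threshold. The squares of mouse _951 are the lowest of the 4 mice in 40 genes, against 38.3% of all genes.

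The size of the difference varied between mice. Median differences of the members were 0.90, 0.22, 0.55 and 0.59 in mice _948, _951, _952 and _953, while the median of all genes lay between -0.05 and -0.01 in each. In mouse _951, 18 members had a negative difference, against 2 or 3 in each other mouse. Of all 18193 genes, 8498 had a positive difference in mouse _951, as did 32 of the 50 members. The CD117pos array of that mouse was the lowest of its fraction for 44 of 50 members, and for 39.3% of all genes. The CD117neg array of mouse _948 was likewise the lowest of its fraction for 44 of 50 members, and for 31.8% of all genes. The difference was largest in mouse _948 for 37 members, and for 22.7% of all genes. The count of 21 therefore depended on which mice entered. Without mouse _951, 35 members rose (11.6% of all genes rose and 16.4% fell), and without its CD117pos array alone, in a fit without the block, 38 rose (11.9% and 16.3%). Leaving out mouse _948, _952 or _953 left 5, 6 and 4 rises, beside 2.31%, 3.21% and 2.29% of all genes rising and 6.63%, 7.6% and 6.49% falling, in fits with fewer residual degrees of freedom. In each of these fits 48 of 50 members kept a positive difference and 0 fell. Other settings moved the count as well. Members rose in 34 cases after quantile normalisation (13.3% of all genes rose and 10.7% fell) and in 26 after centring arrays on their medians (10.7% and 11.5%). With a pseudocount of 1 the count was 12 (5.45% and 10.3%), and with 64 it was 26, with 1 fall (9.47% and 14.9%). It was 25 without the block (8.33% and 14%), 23 with the mean of all probe sets (8.16% and 13%) and 15 of 44 without probe sets of shared sequence (7.76% and 12.8%). That last setting dropped every probe set whose name ends in _s_at, _x_at or _a_at. An _a_at name marks transcripts of the same gene, not sequence shared with other genes. The part of the divergent array's other markers in these values was not tested.

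**Figure D2:**
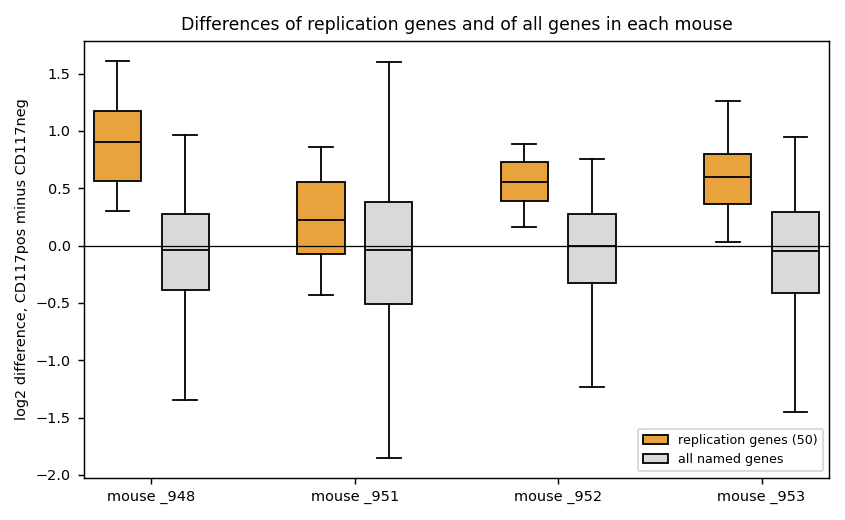
Box plots of log2 differences (CD117pos minus CD117neg, y axis) in each mouse for the 50 replication genes (orange) and all 18193 named genes (grey). Boxes show quartiles with the median and whiskers the 5th and 95th percentiles, and the replication genes of mouse _951 have a median of 0.22, against 0.55 to 0.90 in the other mice.

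Promoter sequences show what many members share beyond their function. RefSeq promoters (build GRCm38.p6, 250 bases before to 50 after a transcript start) were at hand for 42 of the 51 genes, in 51 windows. E2F-type letters were searched on both strands as TTCCCGC, as the variant TTGGCGC and as the variant TTCGCGC, with overlapping matches merged. They occurred in 31 of 51 member windows (60.8%) and in 8.07% of all 32851 windows. Member windows were also richer in G and C, with a median of 62.3% against 52.7%, and the part of base composition in the motif share was not tested. By gene, 28 of 42 members (66.7%) held such letters, against 9.20% of all genes, among them 12 of 17 members that rose (70.6%) and 15 of 24 that did not pass (62.5%). The CHR letters TTTGAA, known from cell cycle genes of G2 and mitosis, occurred for 16.7% of members and 20.2% of all genes, and CCAAT for 57.1% and 41.1%. A match is a run of letters, not a tested binding site. The windows printed are those of Cdc7 and Rfc3, the members with the largest rises, of Orc4, the member with the most negative difference, and of Pola1, the member with most E2F-type matches. Where a gene had several windows, the window with most matches is shown. Capitals mark the E2F-type letters, and each sequence runs 5′ to 3′ on the gene's strand.
Cdc7, chr5:106964311-106964610, plus strand: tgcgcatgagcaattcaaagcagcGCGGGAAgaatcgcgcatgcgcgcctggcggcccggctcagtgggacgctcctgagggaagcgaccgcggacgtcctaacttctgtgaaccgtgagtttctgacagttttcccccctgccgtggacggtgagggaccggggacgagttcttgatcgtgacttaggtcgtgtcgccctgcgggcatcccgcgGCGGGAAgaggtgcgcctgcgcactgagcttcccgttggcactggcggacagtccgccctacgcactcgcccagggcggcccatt
Rfc3, chr5:151651159-151651458, minus strand: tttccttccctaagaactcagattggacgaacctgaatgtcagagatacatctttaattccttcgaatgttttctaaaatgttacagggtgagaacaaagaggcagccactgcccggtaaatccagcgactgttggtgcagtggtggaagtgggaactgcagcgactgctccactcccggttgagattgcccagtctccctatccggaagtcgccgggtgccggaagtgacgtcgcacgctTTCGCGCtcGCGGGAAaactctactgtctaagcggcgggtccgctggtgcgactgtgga
Orc4, chr2:48949218-48949517, minus strand: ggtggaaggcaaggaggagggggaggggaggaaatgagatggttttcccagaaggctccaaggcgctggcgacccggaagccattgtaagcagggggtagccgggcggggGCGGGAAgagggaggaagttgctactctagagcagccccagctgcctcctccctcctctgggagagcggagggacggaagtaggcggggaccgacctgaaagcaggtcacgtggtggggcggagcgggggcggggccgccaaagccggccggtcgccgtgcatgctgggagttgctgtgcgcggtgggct
Pola1, chrX:93632106-93632405, minus strand: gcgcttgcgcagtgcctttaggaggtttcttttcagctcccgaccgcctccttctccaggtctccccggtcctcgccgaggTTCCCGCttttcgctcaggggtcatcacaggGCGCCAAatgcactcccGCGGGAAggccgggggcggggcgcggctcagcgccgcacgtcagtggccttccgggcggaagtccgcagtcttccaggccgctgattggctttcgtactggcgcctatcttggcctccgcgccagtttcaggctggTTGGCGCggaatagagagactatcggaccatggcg
The reverse complement of TTCCCGC, read as GCGGGAA, occurs in all 4 printed windows. Because windows, and Pola1 itself, were picked by their matches, this was partly fixed by the choice. The printed Orc4 window holds it although Orc4 did not rise, and the other Orc4 windows hold no E2F-type letters.

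Origin recognition genes moved unevenly. Of Orc1 to Orc6, which encode the complex that marks origins, 1 rose and 0 fell, against 8.27% and 13.8% of all genes. The median difference was 0.48. Orc3 (Entrez gene 50793) measured 591, 495, 657 and 726 in CD117pos, against 302, 409.6, 372 and 389 in CD117neg. The groups did not overlap, with a log2 difference of 0.72 ± 0.15 (SE, limma adjusted p = 0.0244). Orc1, the largest subunit and the one that is regulated through the cell cycle in mammals, measured 138, 71.0, 175 and 147 in CD117pos, against 56.1, 83.4, 92.2 and 83.7 in CD117neg. Only the CD117pos array of mouse _951 overlapped with the CD117neg arrays, and the difference of 0.61 ± 0.23 did not pass (limma adjusted p = 0.122). Orc4 ran against the other members, with 366, 277, 408 and 396 in CD117pos and 459, 455, 485 and 513 in CD117neg. Although these groups did not overlap, its difference of -0.40 ± 0.13 did not pass (limma adjusted p = 0.0758). Among the other probe sets of Orc4, differences were -0.44, -0.04 and 0.07, so that the direction was not shared by all of them. Orc2, Orc5 and Orc6 had differences of 0.53, 0.36 and 0.44 and did not pass.

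Of 3 genes that act on licensing, 1 of them the inhibitor Gmnn, 2 rose, against 8.27% of all genes. Cdc6 (Entrez gene 23834), the ATPase that helps the origin recognition complex to load the helicase, measured 1725, 1627, 1727 and 2023 in CD117pos, against 750.5, 1006, 1035 and 958 in CD117neg. Its arrays did not overlap, and the difference was 0.92 ± 0.14 (limma adjusted p = 0.00851). Gmnn, encoding geminin, the inhibitor of Cdt1 that prevents relicensing, measured 2993, 3232, 3475 and 3608, against 2087, 2244, 2628 and 2693 in CD117neg. It was higher in all 4 mice by a similar amount, between 0.40 and 0.52, and its difference was 0.47 ± 0.11 (limma adjusted p = 0.0303). Cdt1, the loading factor that geminin holds back, averaged 3621 ± 164 in CD117pos and 3087 ± 291 in CD117neg (SD, n = 4), without overlap, but its difference of 0.23 ± 0.12 did not pass (limma adjusted p = 0.256).

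The MCM helicase genes were abundant in both fractions and none passed, where 8.27% of all genes rose and 13.8% fell. On their brightest probe sets, Mcm2 to Mcm7 had positive differences of 0.24 to 0.62, and before adjustment 2 of the 6, Mcm3 and Mcm7, had a limma p under 0.05. Mcm3 measured 1903, 986, 1755 and 1677 in CD117pos, against 832, 1054, 1183 and 921 in CD117neg. Mouse _951 went the other way there, and the difference of 0.62 ± 0.22 had a limma adjusted p of 0.106. Mcm7 measured 5330.2, 5119.6, 6337 and 6399 in CD117pos, against 3599, 4514, 4854 and 4399 in CD117neg. These arrays did not overlap, and the difference was 0.42 ± 0.12 (limma adjusted p = 0.0626). In mouse _951, 4 of the 6 genes had a negative difference, in the other mice 0. The MCM genes had more probe sets than most members, and all 18 with a mean intensity of at least 50 had a positive difference, from 0.24 to 1.23. Of these 18, 3 passed in a fit over all 34945 named probe sets, where 6.89% rose and 12.1% fell, and all 3 were other probe sets of Mcm7. Their differences were 1.23 ± 0.25, 0.95 ± 0.24 and 0.50 ± 0.13, against 0.42 ± 0.12 for the brightest. The size of the Mcm7 difference, and whether it passes, thus rested on the probe set.

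**Figure D3:**
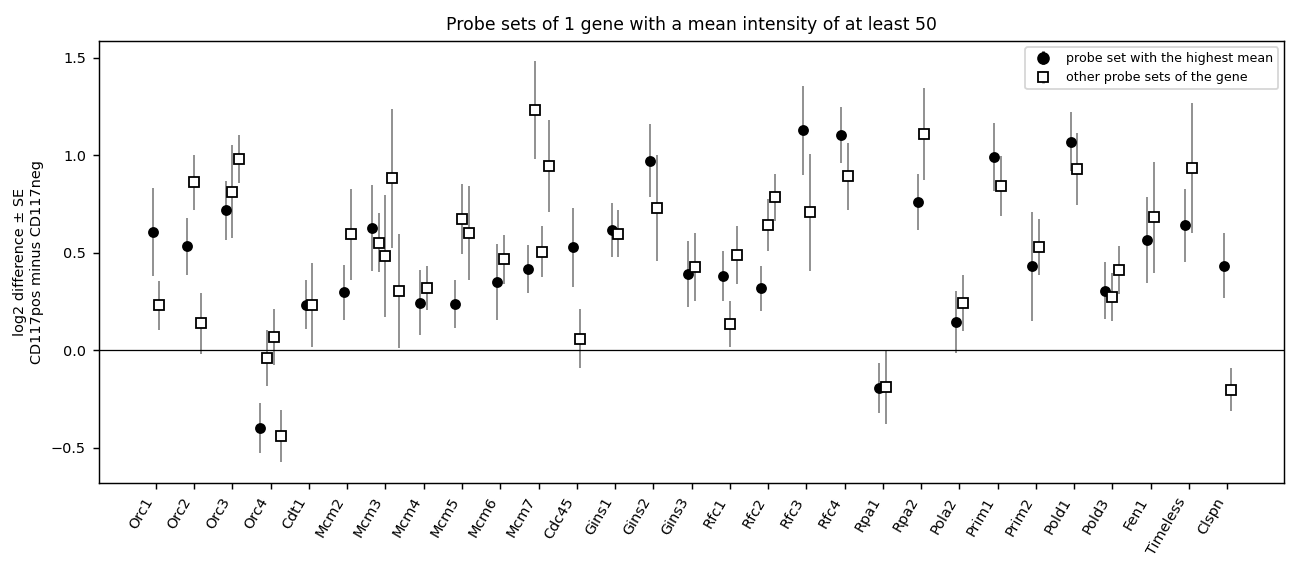
Log2 difference ± SE (y axis, CD117pos minus CD117neg) of every probe set with a mean intensity of at least 50, for members that have several such probe sets. Filled circles are the brightest probe set of a gene and open squares the others, and the Mcm7 probe sets range from 0.42 to 1.23 while those of Orc4 lie on both sides of 0.

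Helicase activation held the most calls, with 7 rises among 9 genes, against 8.27% of all genes. Cdc7 (Entrez gene 12545), the kinase that phosphorylates loaded MCM complexes, showed the largest difference of all members. It measured 1321, 1249, 1503 and 1767 in CD117pos, against 392, 768, 851 and 658 in CD117neg. All CD117pos arrays lay above all CD117neg arrays, with a difference of 1.15 ± 0.20 or 2.22-fold (limma adjusted p = 0.0139). A second probe set of Cdc7, dim at a mean under 50, had a difference of 0.21. Dbf4, the regulatory subunit that activates Cdc7, averaged 1438 ± 246 in CD117pos and 880.3 ± 244 in CD117neg, a difference of 0.72 ± 0.16 (limma adjusted p = 0.0291). Gins2, a subunit of the GINS complex that joins Cdc45 and MCM in the active helicase, measured 483, 334, 529 and 455 in CD117pos, against 147, 200.4, 289.7 and 265 in CD117neg. The groups did not overlap, and the difference was 0.97 ± 0.19 (limma adjusted p = 0.0183). Gins1 and Gins4 rose by 0.62 ± 0.14 and 0.40 ± 0.11, while Gins3 had a difference of 0.39 ± 0.17 and did not pass. Mcm10, which binds the helicase as it is activated, rose by 0.87 ± 0.20, and Topbp1, a scaffold for origin firing and checkpoint signalling, by 0.53 ± 0.11. Cdc45, the third part of the active helicase, measured 1544, 1039.8, 1925 and 1774 in CD117pos and 799, 1175, 1205 and 1099.7 in CD117neg. It was lower in CD117pos in mouse _951 alone and did not pass (0.53 ± 0.20, limma adjusted p = 0.131). Several of the 7 calls depended on which probe sets were used, and some of the others were dim. The other probe sets of Mcm10 had mean intensities of 20.6 and 17.9, against 867 for the brightest. The other probe set of Dbf4 had a mean of 15.7, against 1159. The lower values of Mcm10 and Dbf4 below thus rested on dim probe sets, whose changes log2(intensity + 16) understates. With the mean of all probe sets, Mcm10 had a difference of 0.41 and Dbf4 of 0.46 and neither passed (limma adjusted p = 0.0736 and 0.0548), and Cdc7 passed at 0.68. Without probe sets of shared sequence, Mcm10 and Gins2 did not pass, at 0.27 and 0.73 (limma adjusted p = 0.203 and 0.125), and Cdc7 was not tested. There Mcm10 was read by its dim probe set with a mean of 20.6, and Gins2 by a probe set with a mean of 122. Gins4 did not pass in that fit either, at 0.40 (limma adjusted p = 0.0566). Its only probe set was the same in both fits, so this loss did not rest on the probe set.

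Within the sliding clamp system, the small loader subunits Rfc3, Rfc4 and Rfc5 rose, while Rfc2, the large subunit Rfc1 and the clamp itself did not pass. Rfc4 (Entrez gene 106344) measured 905, 799, 1027 and 1011 in CD117pos, against 319.8, 440.4, 525 and 439 in CD117neg. Its groups lay far apart, with a difference of 1.10 ± 0.14 (limma adjusted p = 0.00588). Rfc3 measured 260.3, 134, 267 and 299 in CD117pos, against 74.3, 88.0, 153 and 87.1 in CD117neg. It was higher in all 4 mice, although CD117pos of mouse _951 lay below CD117neg of mouse _952, and its difference was 1.13 ± 0.23 (limma adjusted p = 0.0216). The other Rfc3 probe set, of similar brightness, measured 259.9, 81.1, 240.4 and 215 in CD117pos, against 91.3, 111, 146 and 85.5 in CD117neg. It was lower in CD117pos in mouse _951 and did not pass, with a difference of 0.71 ± 0.30 (limma adjusted p = 0.173 over all probe sets). Rfc5 averaged 2135 ± 241 in CD117pos and 1138 ± 129 in CD117neg, a difference of 0.90 ± 0.12 (limma adjusted p = 0.00563). Rfc1, the large subunit, and Rfc2 had differences of 0.38 ± 0.13 and 0.32 ± 0.11 and did not pass, although both other probe sets of Rfc2 rose, by 0.64 and 0.78. Pcna, the clamp that tethers polymerases to DNA, measured 4143, 3547, 4939 and 4947 in CD117pos and 3401, 3670.4, 4337 and 3618 in CD117neg. These ranges overlapped, and the difference of 0.22 ± 0.13 had a limma adjusted p of 0.300.

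The 3 subunits of RPA, the complex that coats single-stranded DNA, did not move together. Rpa2 (Entrez gene 19891) measured 1221, 1014, 1024 and 1137 in CD117pos, against 542, 642, 699 and 696 in CD117neg. Rpa3 measured 680.1, 764, 995 and 813 in CD117pos, against 399, 518, 610.4 and 495 in CD117neg. Neither gene showed an overlap, and the differences were 0.76 ± 0.14 and 0.67 ± 0.11 (limma adjusted p = 0.0167 and 0.0106). Rpa1, the large DNA-binding subunit, measured 3399, 2750.1, 4229 and 3738 in CD117pos, against 3449, 3835, 4569 and 4231 in CD117neg. It was slightly lower in all 4 mice, but its difference of -0.20 ± 0.13 did not pass (limma adjusted p = 0.34), and its other probe set had a difference of -0.19.

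Catalytic and accessory subunits of the polymerases rose in 4 of 9 cases, against 8.27% of all genes. Pold1 (Entrez gene 18971), the catalytic subunit of lagging-strand polymerase delta, measured 1648, 1315, 2061 and 1769 in CD117pos, against 579.7, 772, 998 and 876 in CD117neg. No arrays overlapped, and the difference was 1.07 ± 0.15 (limma adjusted p = 0.00726). Prim1, the catalytic primase subunit, measured 1997, 1403, 1969.6 and 2339 in CD117pos, against 797, 944, 1159 and 924 in CD117neg, a difference of 0.99 ± 0.17 (limma adjusted p = 0.0138). Its partner Prim2 measured 761, 291, 748 and 743 in CD117pos, against 359.6, 449, 542 and 415 in CD117neg. Mouse _951 ran opposite to the other mice, and the difference of 0.43 ± 0.28 did not pass (limma adjusted p = 0.355). Pold2 and Pole2, accessory subunits of polymerases delta and epsilon, rose by 0.79 ± 0.17 and 0.87 ± 0.13. Pole, the catalytic subunit of leading-strand polymerase epsilon, had a difference of 0.60 ± 0.17 without overlap and just missed the threshold (limma adjusted p = 0.0557). Pola1, the catalytic subunit of polymerase alpha, measured 979.5, 571, 1307 and 1084 in CD117pos, against 246, 578, 751 and 739.6 in CD117neg. The single low CD117neg value of mouse _948 gave that mouse a difference of 1.93, against -0.02 in mouse _951, and the gene did not pass (0.81 ± 0.31, limma adjusted p = 0.133). Pola2 and Pold3 had differences of 0.14 and 0.31.

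Of the genes that finish Okazaki fragments, 1 of 3 rose, against 8.27% of all genes. Rnaseh2a (Entrez gene 69724), the catalytic subunit of ribonuclease H2, measured 851, 592, 659 and 789 in CD117pos, against 368, 302, 388 and 338 in CD117neg. The groups were well apart, with a difference of 1.01 ± 0.13 (limma adjusted p = 0.00566). Fen1, the flap endonuclease, measured 2922, 7193, 3919 and 2898 in CD117pos, against 2308, 2806, 2883 and 2655 in CD117neg. One array, CD117pos of mouse _951, was far above the rest, and the difference of 0.56 ± 0.22 did not pass (limma adjusted p = 0.137). That excess was seen on 1 probe set only: the other Fen1 probe set measured 544, 238, 603 and 384 in CD117pos, against 172, 279, 331 and 260.4 in CD117neg, where the same array was the lowest of its fraction. Lig1, the ligase that seals the fragments, had a difference of 0.31 ± 0.23 and a low CD117pos value in mouse _951 (1125, where the other CD117pos arrays read 2053 to 2159).

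Chromatin assembly and fork protection genes gave 1 call, a rise, where 8.27% of all genes rose. Wdhd1, which links polymerase alpha to the helicase, averaged 1339 ± 182 in CD117pos and 892 ± 184 in CD117neg, a difference of 0.59 ± 0.15 (limma adjusted p = 0.0402). Timeless and Tipin, partners that stabilise forks, had differences of 0.64 ± 0.19 and 0.62 ± 0.18 without overlap between fractions, and missed the threshold (limma adjusted p = 0.0624 and 0.061). Timeless measured 1309, 876, 1223 and 1183 in CD117pos, against 553, 766, 817 and 790.3 in CD117neg. Tipin measured 1939, 1291, 1952 and 1973 in CD117pos, against 902, 1199, 1267 and 1237 in CD117neg. In each gene the lowest CD117pos value came from mouse _951 and the lowest CD117neg value from mouse _948. Clspn, encoding the checkpoint mediator claspin, had a difference of 0.43 ± 0.17 and did not pass. Chaf1b, a subunit of the histone chaperone CAF-1, measured 326, 175, 347 and 346 in CD117pos, against 207, 204, 259 and 220.3 in CD117neg. It was lower in CD117pos in mouse _951 and higher in the other mice, and its difference of 0.36 ± 0.17 did not pass (limma adjusted p = 0.214).

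**Figure D4:**
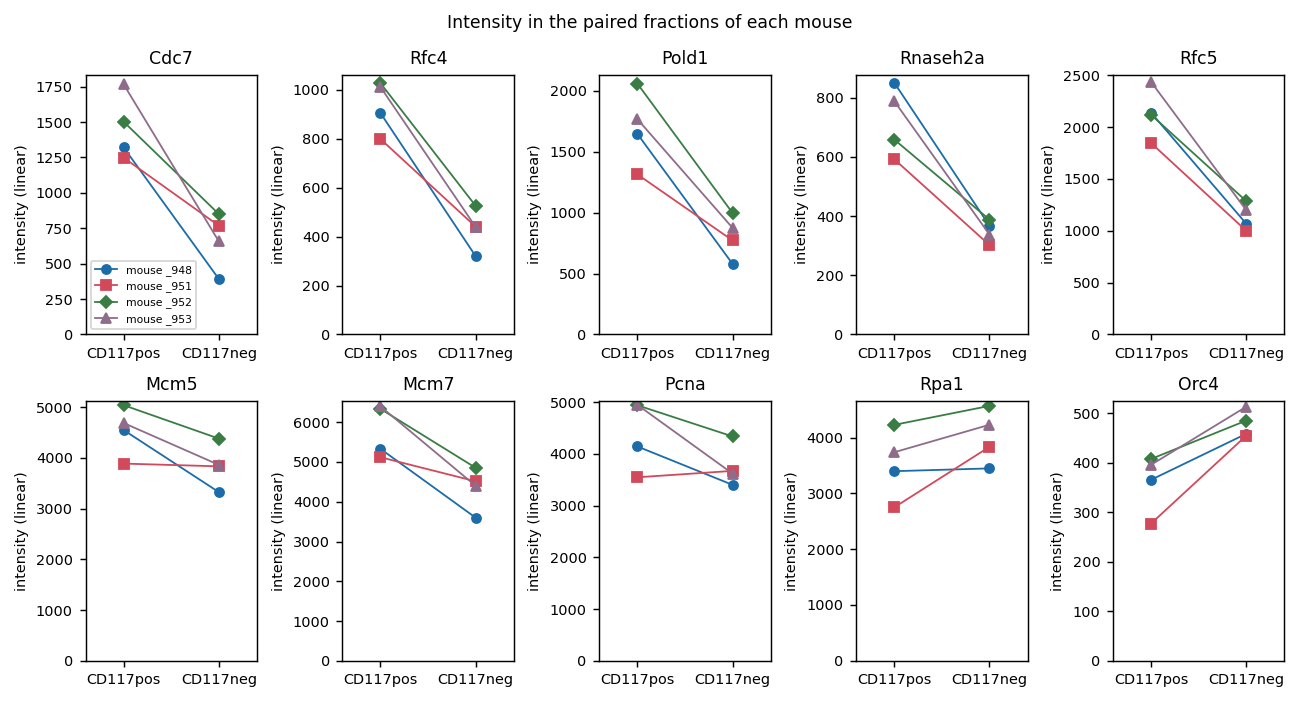
Intensity on a linear scale (y axis) of 10 replication genes in the CD117pos (left) and CD117neg (right) fraction of each mouse, with a line joining the fractions of 1 mouse. The lines of Cdc7, Rfc4, Pold1, Rnaseh2a and Rfc5 run down from CD117pos in every mouse, those of Mcm5, Mcm7 and Pcna are flatter, and those of Rpa1 and Orc4 run up.

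Other genes of the pathway, outside the 51, were also called mostly as higher. Of 76 measured, 32 rose (42.1%) and 8 fell (10.5%), against 8.27% and 13.8% of all genes, with a median difference of 0.46. Among 31 replisome partners, 13 rose and 1 fell, led by Mtbp, a partner of the origin firing factor Ticrr, at 1.20 ± 0.18, Chtf18, of an alternative clamp loader, at 1.17 ± 0.17, and Dtl, the substrate receptor of the ubiquitin ligase that destroys Cdt1, at 1.07 ± 0.16. The fall was Chtf8, a partner of Chtf18, at -0.52 ± 0.13. Of 9 nucleotide supply genes, 5 rose and 2 fell. Thymidylate kinase, Dtymk, and thymidine kinase, Tk1, rose by 1.01 ± 0.13 and 1.21 ± 0.18, while Samhd1, which degrades dNTPs, fell by 1.83 on the log2 scale, with 1568, 879, 1327 and 1335 in CD117pos, against 4291, 4362, 4543 and 4696 in CD117neg. All 11 fork checkpoint genes were measured, of which 7 rose and 0 fell. Rad1 and Hus1, of the checkpoint clamp, rose by 1.27 ± 0.17 and 0.86 ± 0.12, and Wee1, the kinase that restrains Cdk1, by 1.21 ± 0.12. Their partner Rad9a had a difference of -0.56 ± 0.15 and did not pass.

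Among 25 regulators of S phase entry, 7 rose (28%) and 5 fell (20%), against 8.27% and 13.8% of all genes. Skp2, which targets the inhibitor p27 for destruction, rose by 0.95 ± 0.16. Cdkn1a and Cdkn1b, which encode the inhibitors p21 and p27, differed by -1.64 ± 0.23 and -0.71 ± 0.15, and Rb1, the retinoblastoma protein gene, by -0.92 ± 0.19. The falls were not of inhibitors alone: the cyclin gene Ccnd3 differed by -0.82 ± 0.18, whereas Rbl1, a relative of Rb1, rose by 0.55 ± 0.14. The E2F genes did not move as a group: E2f1, E2f3 and E2f6 rose by 0.90 ± 0.21, 0.84 ± 0.14 and 0.63 ± 0.12, and E2f2 differed by -3.10 ± 0.14. On the CD117pos array of mouse _951, Ccne1, the cyclin of S phase entry, measured 4281, against 528 to 726 on the other CD117pos arrays, and E2f5 8162, against 866 to 1247. These genes were singled out for that array, with their values known. Neither passed over the 4 mice.

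**Figure D5:**
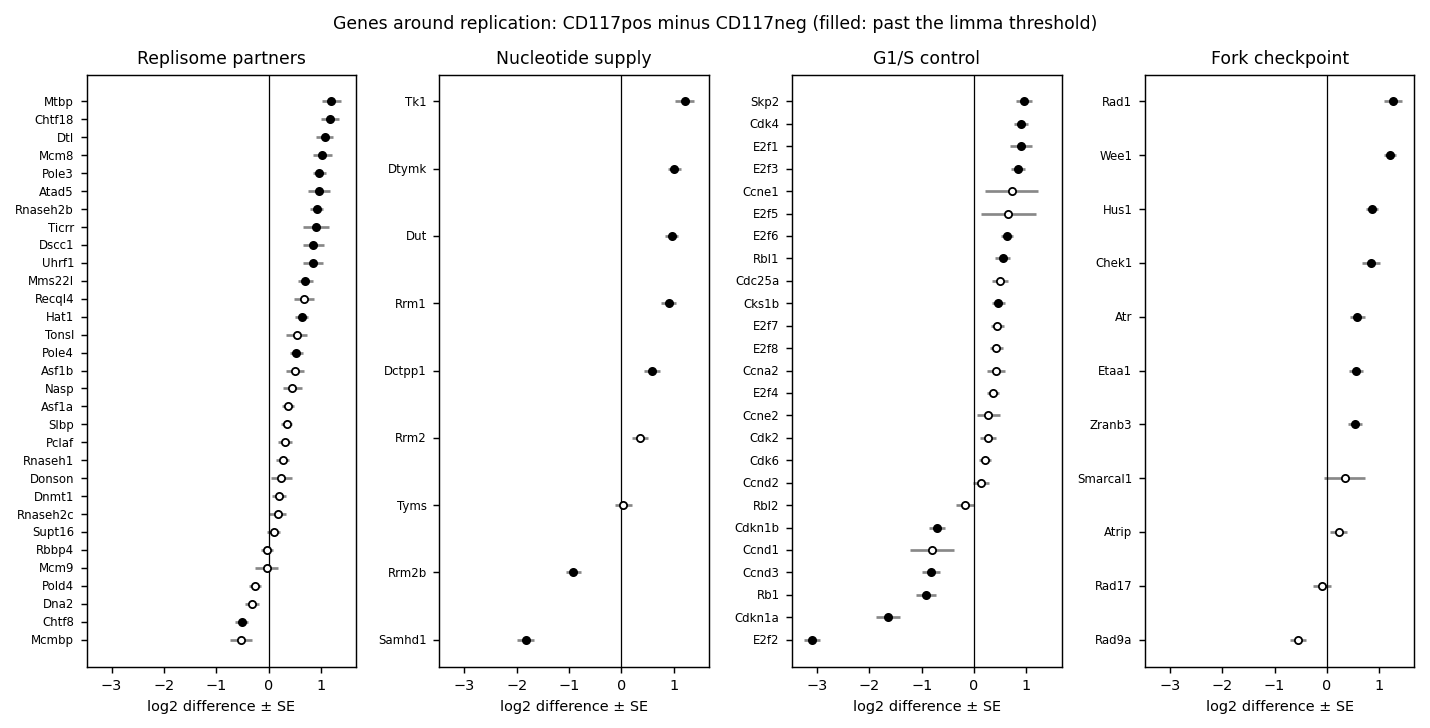
Log2 difference ± SE (x axis, CD117pos minus CD117neg) of 76 genes around replication in 4 lists, with filled points past the limma threshold. Fork checkpoint genes have 7 filled points, all above 0, and the G1/S panel has filled points on both sides, with E2f2 at -3.10.

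Across the members, the other probe sets of the same genes gave a check that the choice of the brightest had not used. In 36 members there were 54 further probe sets, of which 42 had a mean intensity of at least 50. Of these 42, 12 rose and 0 fell in the fit over all probe sets, where 6.89% rose and 12.1% fell. Among the 42, 38 had a positive difference, and 40 had the same sign as the brightest probe set of their gene. The matching shares over all probe sets were not computed. These probe sets read the same RNA on the same arrays, so they check the choice of probe set only. Their median difference was 0.54. Of the 42, the 5 furthest below the brightest probe set of their gene belonged to Clspn (-0.20 against 0.43), Cdc45 (0.06 against 0.53), Rfc3 (0.71 against 1.13), Orc2 (0.14 against 0.53) and Orc1 (0.23 against 0.61). The 12 dim ones had a median of 0.15.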

How the data were processed

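Transcripts were measured on 1-colour Affymetrix arrays of 45101 probe sets after amplification and biotin labelling of polyA RNA, per the labels' protocols. The deposited values are an intensity on a linear scale, made by the authors with a probe summary and scaling not given in the sources used here. Between 841 and 898 values per array were exactly 1. Arrays have no read depth, and their number limits the precision. Control probe sets (64) were left out, and probe sets with 1 symbol in the platform annotation gave 18193 genes, each by its brightest probe set. Intensities were used as deposited as log2(intensity + 16), which understates changes of dim genes. The fractions were compared by limma 3.58.1 under R 4.3.3 with its two-sided moderated test, adjusted by Benjamini-Hochberg over all genes at 0.05. A run on simulated arrays with known changes checked the code only, because its noise was independent and it held no divergent array. Errors of differences are SE, those of means SD (n = 4).

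Mouse was a block because each mouse gave both fractions, per the design text. Deviations from the fraction mean correlated within a mouse by 0.21, 0.22, 0.27 and 0.12, against at most 0.11 between mice. Members, lists, motifs, tests and alternatives were chosen with earlier results of these data known. Members given by array were, per role, the 2 largest positive and the largest negative difference. Cdc45, Pcna, Prim2, Pola1 and the other Rfc3 and Fen1 probe sets were added with their values known. Pathway genes were named by the 3 largest called differences per list. Chtf8, Rad9a, Ccne1, Ccnd3, Rb1, Rbl1, Cdkn1b and the other E2F genes were added with their values known. Of pathway genes only Samhd1 is given by array. Alternatives changed scaling, pseudocount, filter, probe set choice, block and mice. Figures used matplotlib 3.10.9.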

Additional observations from a re-analysis of the deposited data

Results flagged for a closer look

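In 100 groups of 4 arrays (50 members in 2 fractions), 9 held an array set apart from the rest. Its gap to its nearest neighbour, as a share of the group's range, exceeded Dixon's 95% limit. Chance flags about 1 in 20 groups when they are independent, but these groups shared the same arrays. The share flagged among all genes was not computed, so the 9 flags cannot be read as a trait of the members. In 5 of the 9 flagged groups the CD117pos array of mouse _951 was the low one. The gap was 0.917 of the range for Rfc1 (1297, against 1584 to 1613 in the other mice), 0.975 for Prim2 (291, against 743 to 761), 0.923 for Lig1 (1125, against 2053 to 2159), 0.904 for Chaf1b (175, against 326 to 347) and 0.959 for Tipin (1291, against 1939 to 1973). In 3 the CD117neg array of mouse _948 was the low one, with gaps of 0.838 for Cdt1 (2657, against 3162 to 3271), 0.837 for Tipin (902, against 1199 to 1267) and 0.835 for Timeless (553, against 766 to 817). For Orc5 the CD117neg array of mouse _953 was the high one, with a gap of 0.875 (496, against 397 to 408).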

How the results depend on the processing

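The direction of the members held in every setting run, with 48 of 50 positive (42 of 44 without probe sets of shared sequence) and a median difference of 0.44 to 0.74, but the number of calls did not. Rising members were 34 under quantile normalisation, 12 at a pseudocount of 1 and 21 as reported. Leaving out a mouse gave 4 to 35, and leaving out only CD117pos of mouse _951 gave 38. Orc4 was the 1 falling member with a pseudocount of 64 and without low genes. All genes rising were 2420 under quantile normalisation and 992 at a pseudocount of 1, against 1504, and 416 to 2106 when a mouse was left out. Genes falling were 1181 to 2983, against 2511. Pathway genes rising and falling were 19 and 4 with a pseudocount of 1, against 32 and 8. When mice were left out, they were 7 to 42 and 3 to 7. Without the replicate block, 25 members rose. Of the 21 calls, Rfc4, Rfc5 and Pold1 passed in all 13 other settings and Rnaseh2a in the 12 that tested it. The only probe set of Rnaseh2a has a name ending in _a_at and was dropped by the filter on shared sequence. Of the calls, 17 were lost in at least 1 setting, while 23 of the 29 other members passed in at least 1. Leaving out a mouse lowers the degrees of freedom, and the other causes were not tested. The scaling behind the deposited values is unknown, and so is whether each mouse received a separately transduced clone.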
